A study of Mus musculus with 3 samples.

Results

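The 40 genes described here encode collagens and other proteins of the extracellular matrix, with a few enzymes and inhibitors that act on it, and were taken by symbol from the 32285 genes of mouse colon single-cell libraries. They are 6 fibrillar collagens, 10 network, beaded-filament and multiplexin collagens, 4 proteoglycans, 6 elastic fibre and fibulin genes, 9 adhesive and matricellular glycoproteins and 5 enzymes and inhibitors. The choice went by gene names, but it was made with earlier results of these data known. The 3 groups, with 1 library each, are labelled BT mutant, BT WT and PBS, and all of them are colon cells of germ-free mice, the first 2 after colonization and the last after PBS. Neither the meaning of BT nor the kind of mutation stands in the labels, and they give no time, no age and no number of animals per library. With 1 library per group there is no replicate check and no test, and a difference between libraries cannot be told apart from a difference between groups. Each level is the sum of unique molecular identifiers (UMIs, 1 per captured transcript) over the cells of a class, per 1000000 UMIs of that sum (CPM). Intervals are exact 95% Poisson intervals for levels and exact conditional binomial intervals for ratios, and they cover counting error only.

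Collagens are the main structural proteins of connective tissue: type I, III and V chains form fibrils, type IV chains form the sheet of the basement membrane, and type VI chains form beaded filaments beside cells. Small leucine-rich proteoglycans bind the fibrils, fibrillins and elastin build elastic fibres, and glycoproteins such as fibronectin, SPARC and periostin link fibres to cells. In the gut wall most of this matrix is made by fibroblasts of the mucosa and submucosa, while endothelium and smooth muscle add their own basement membranes.

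Barcodes with at least 300 detected genes and at most 25% mitochondrial UMIs were kept, which left 6138 of 8195 barcodes in the BT mutant library, 7070 of 8829 in the BT WT library and 3198 of 4425 in the PBS library, with medians of 3355, 3845 and 3671.5 UMIs per cell. The 40 genes held 135416 UMIs in BT mutant cells, 99170 in BT WT cells and 78539 in PBS cells. Clusters were made without these genes and 155 further matrix genes, and were named from other markers. Fibroblast-like cells numbered 367, 207 and 124 in the BT mutant, BT WT and PBS libraries, endothelial-like cells 85, 72 and 40, and epithelial-like cells 3510, 4417 and 740. A Col1a1 or Dcn UMI was present in 97.3%, 97.1% and 99.2% of fibroblast-like cells of the BT mutant, BT WT and PBS libraries, against 7.22%, 2.67% and 6.15% of B-like cells, which should lack both genes (median depths 6929, 8285 and 9912.5 UMIs in fibroblast-like cells and 2764, 2846 and 3486 UMIs in B-like cells). The libraries stood apart in several ways that touch what follows. Epithelial-like cells had a median of 3779 UMIs in the BT mutant library and 4230 in the BT WT library, but 17389 in the PBS library. 38 fat cell-like cells came from the PBS library, 1 from the BT WT library and 0 from the BT mutant library. In fibroblast-like cells, the 12 posterior Hox genes, whose level marks position along the gut, summed to 52.5, 70.6 and 35.1 CPM in the BT mutant, BT WT and PBS libraries, with 5, 6 and 7 of them at 0. The 6 lymphatic endothelial markers summed to 18.3, 74.1 and 1.52 CPM in the same cells, with 0, 0 and 5 at 0, and 10 epithelial markers to 1135, 1269 and 741 CPM with none at 0. Pairs of libraries shared 13 kept barcodes (BT mutant and BT WT), 6 (BT mutant and PBS) and 7 (BT WT and PBS). The part of any of these in the ratios below was not tested.

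The members lie on 14 chromosomes, and all 40 matched GENCODE vM21 (GRCm38) by identifier. Those that carry most of the results are Col1a1 (ENSMUSG00000001506, chr11:94936224-94953042, plus strand), Col1a2 (ENSMUSG00000029661, chr6:4504814-4541544, plus), Col3a1 (ENSMUSG00000026043, chr1:45311538-45349706, plus), Fbn1 (ENSMUSG00000027204, chr2:125300594-125507993, minus), Sparc (ENSMUSG00000018593, chr11:55394500-55423183, minus) and Thbs4 (ENSMUSG00000021702, chr13:92751590-92794818, minus). Col5a2 (chr1:45374321-45503282, minus) lies next to Col3a1 in the annotation, and Dcn (chr10:97479609-97518143, plus) next to Lum (chr10:97565128-97572703, plus). Both type IV pairs are arranged head to head. Col4a1 (minus) and Col4a2 (plus) start 21 bp apart and overlap on chromosome 8, whereas Col4a5 (plus) and Col4a6 (minus) start 1309 bp apart on chromosome X. For 8 members a protein-coding gene overlaps on the opposite strand (Col4a1, Col4a2, Col18a1, Fbn1, Prg4, Mfap4, Timp1 and Timp3). Whether the counting used strand is not given in the sources used here, so reads of such a partner could have been counted with the member.

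RefSeq promoter windows (GRCm38.p6, 250 bases before to 50 after the start) were matched for 25 of the 40 members. The windows of Col4a1 and Col4a2 are shown because the pair is read from 1 stretch of DNA in opposite directions and their levels are compared below. The capitals mark the 78 bases, chr8:11312777-11312854, that both windows contain, of which 57 are G or C, and each gene's line is written on its own strand (Col4a1 window chr8:11312777-11313076, minus; Col4a2 window chr8:11312555-11312854, plus).
Col4a1: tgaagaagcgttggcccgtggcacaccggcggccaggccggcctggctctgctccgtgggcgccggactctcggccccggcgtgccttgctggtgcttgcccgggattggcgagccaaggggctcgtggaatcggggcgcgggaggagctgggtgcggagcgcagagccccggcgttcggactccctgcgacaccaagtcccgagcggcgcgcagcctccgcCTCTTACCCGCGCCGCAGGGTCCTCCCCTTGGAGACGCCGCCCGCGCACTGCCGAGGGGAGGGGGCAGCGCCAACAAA
Col4a2: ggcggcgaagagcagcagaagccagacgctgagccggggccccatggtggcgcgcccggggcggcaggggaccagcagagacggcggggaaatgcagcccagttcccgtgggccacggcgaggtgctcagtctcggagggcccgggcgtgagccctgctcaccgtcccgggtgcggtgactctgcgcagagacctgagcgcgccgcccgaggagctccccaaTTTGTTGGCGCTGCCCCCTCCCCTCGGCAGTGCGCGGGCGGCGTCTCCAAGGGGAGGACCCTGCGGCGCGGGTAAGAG
The window of Col1a2 (chr6:4505368-4505667, plus) is shown as that of a type I chain, one of the abundant fibrillar collagens, with capitals marking the 5 letters CCAAT, or ATTGG on the other strand, which it holds 2 times.
Col1a2: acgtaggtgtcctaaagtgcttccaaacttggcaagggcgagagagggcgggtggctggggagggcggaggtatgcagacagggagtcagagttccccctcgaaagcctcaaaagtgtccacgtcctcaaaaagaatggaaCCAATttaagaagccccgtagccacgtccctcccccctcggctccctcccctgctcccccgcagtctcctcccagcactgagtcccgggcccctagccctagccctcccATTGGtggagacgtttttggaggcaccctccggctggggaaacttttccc
CCAAT, searched on both strands, was found in the windows of 9 of the 25 matched members and in 37.4% of all 32851 windows. The Col3a1 window (chr1:45311288-45311587, plus) had no match. TATAAA, also on both strands, was in 4 of the 25 and in 13.6% of all windows, and GGGCGG in 18 of the 25 and in 35.7%. The 25 members have 30 windows. Members were counted per gene and the shares of all windows per window, so they are not like measures. A match describes letters in the window and nothing about binding.

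Most of the 40 genes had their highest level in fibroblast-like cells. A level is relative to the UMIs of its class and does not give the share of a gene's UMIs that the class holds. Among classes with at least 30 cells in a library, the highest level was in fibroblast-like cells for 26 members in the BT mutant library, 32 in the BT WT library and 32 in the PBS library. Endothelial-like cells were highest for 6 members in each library, among them Col4a1, Col4a2, Sparcl1 and Timp3 in all 3. Thbs4, a thrombospondin best known from tendon and muscle matrix, was highest in epithelial-like cells in all 3 libraries. Mesothelial-like cells were highest for 7 members in the BT mutant library (Col4a5, Col4a6, Col6a1, Col6a2, Col18a1, Prg4 and Timp1), the 1 library in which that class reached 30 cells (45, 13 and 26 cells in the BT mutant, BT WT and PBS libraries). When the 3 libraries were pooled, which was added after seeing the data and let small classes enter, 24 members remained highest in fibroblast-like cells. Col5a3, Col15a1, Col18a1, Sparc and Postn were then highest in enteric glia-like cells (14, 12 and 8 cells in the BT mutant, BT WT and PBS libraries), and Col4a5, Sparcl1 (3719.7 CPM) and Thbs1 (640.5 CPM) in smooth muscle and pericyte-like cells (29, 9 and 26 cells). Levels of different genes are set side by side as 3′ UMI counts, which do not depend on transcript length.

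**Figure D1:**
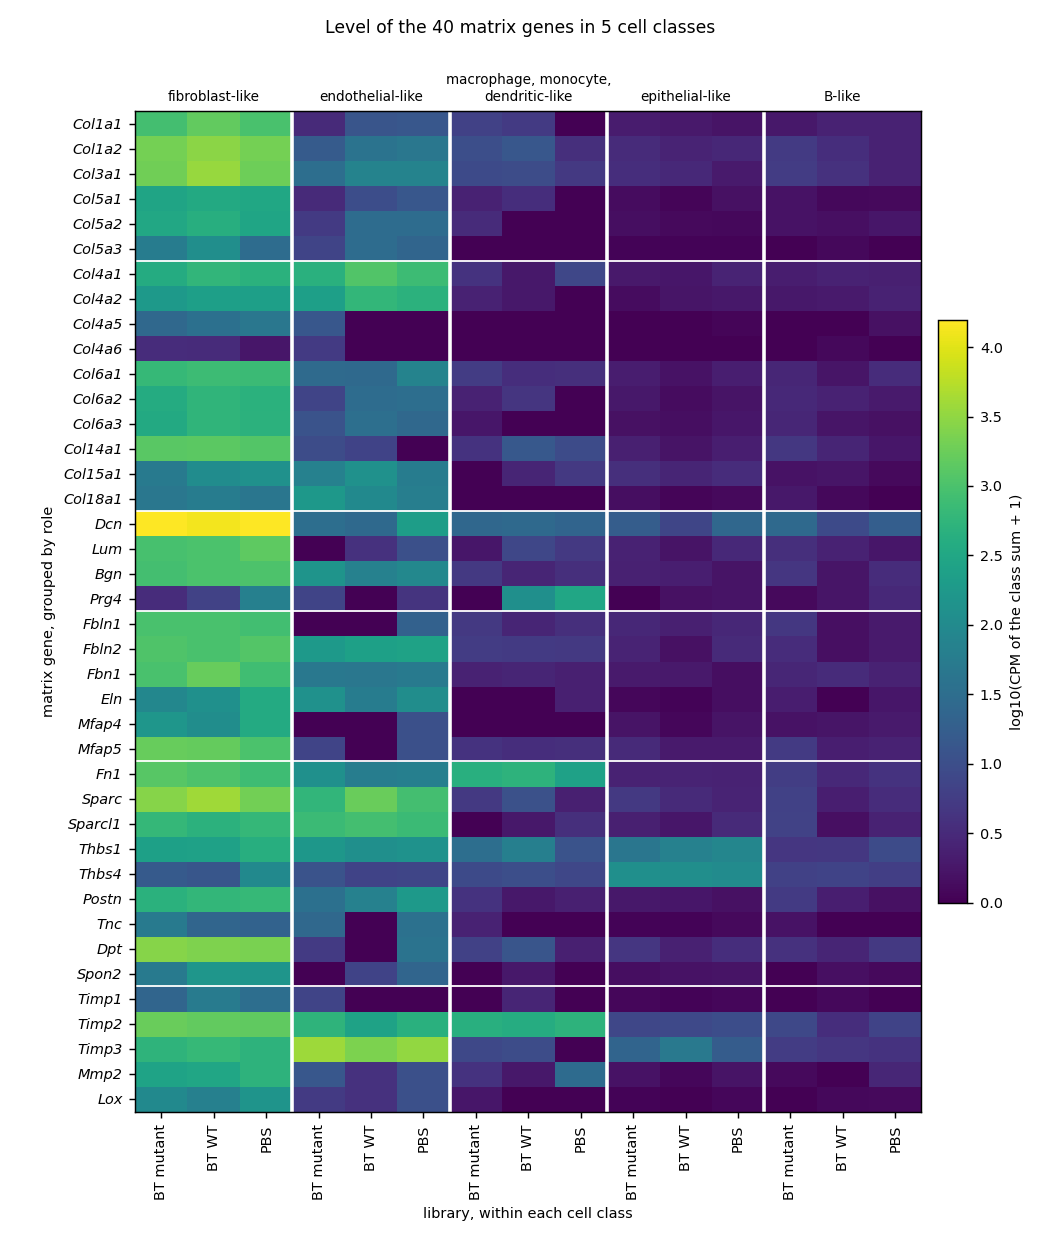
Level of each of the 40 matrix genes (down the page, grouped by role) in 5 cell classes (across), as log10 of the CPM of the class sum plus 1, with the BT mutant, BT WT and PBS libraries side by side within each class. Most genes are bright in fibroblast-like cells and dark elsewhere; Timp3 is brightest in endothelial-like cells (3748, 2295 and 3248 CPM), and Thbs4 and Thbs1 stand out from the other genes in epithelial-like cells.

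In fibroblast-like cells, fibrillar collagens, Fbn1 and Sparc were higher in the BT WT library than in the other 2 libraries. Over the 39 members with at least 20 UMIs in both libraries together, 8 were at least 1.5-fold higher in the BT WT library than in the PBS library, against a background of 13.1% of all genes so counted, and 7 were at least 1.5-fold lower, against 10.6%. The median log2 ratio was 0.14 over the members and 0.02 over the 9788 genes. In the BT mutant library against the BT WT library, 1 of 38 members was higher (background 8.72%) and 8 were lower (background 9.36%), with a median of -0.30 over the members and -0.02 over 10447 genes. In the BT mutant library against the PBS library, 4 of 39 were higher (background 10.7%) and 10 were lower (background 9.43%), with medians of -0.18 and 0.02. The 3 comparisons use the same 3 libraries in pairs and are not independent of each other. The number past 1.5-fold in the BT mutant library against the BT WT library, 9 in all, was 15 without sub-cluster S6 and 14 without sub-cluster S10, so which cells make up the class bears on it.

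All 6 fibrillar collagens had their highest level in the BT WT library, although thinning cells to 1000 UMIs turned Col5a1 for BT WT over PBS (log2 ratio -0.23) and Col5a2 for BT mutant over BT WT (0.24). Col3a1, the type III chain of fine fibrils, stood at 1952 CPM in BT mutant, 3561 CPM in BT WT and 1833 CPM in PBS fibroblast-like cells. The BT WT level was 1.94 times the PBS level (interval 1.85 to 2.04), and the BT mutant level was 0.548 times the BT WT level (0.528 to 0.569). Over the whole class the BT mutant and PBS libraries lay close together, at a ratio of 1.06 (1.01 to 1.12). That ratio was not uniform over 4 sub-clusters, where it ran from 0.441 to 1.60, above 1 in 3 and below 1 in 1. Over 19 alternatives its log2 value lay between -0.50 and 0.54, above 0 in 18. Col1a1, the main type I chain, was also highest in BT WT, with 872 CPM in BT mutant, 1540.0 CPM in BT WT and 993 CPM in PBS cells. Its ratios were 1.55 for BT WT over PBS (1.45 to 1.66), 0.566 for BT mutant over BT WT (0.535 to 0.599) and 0.877 for BT mutant over PBS. Col1a2, the second type I chain, had 2068, 2955 and 2071 CPM in the BT mutant, BT WT and PBS libraries, a BT WT over PBS ratio of 1.43 that stayed short of 1.5. The type V chains, which set fibril diameter, were less abundant. Col5a1 had 278, 351 and 315 CPM, Col5a2 had 332, 430 and 286 CPM, and Col5a3 had 56.5, 119 and 29.7 CPM in the BT mutant, BT WT and PBS libraries. Col5a3 thus showed the widest ratio of the group, 4.0 for BT WT over PBS (2.83 to 5.79, from 204 and 39 UMIs) and 0.474 for BT mutant over BT WT (0.380 to 0.591). In all, 4 of the 6 were at least 1.5-fold higher in BT WT than in PBS (background 13.1%). At least 1.5-fold lower in BT mutant than in BT WT were 3 of the 6 (background 9.36%).

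**Figure D2:**
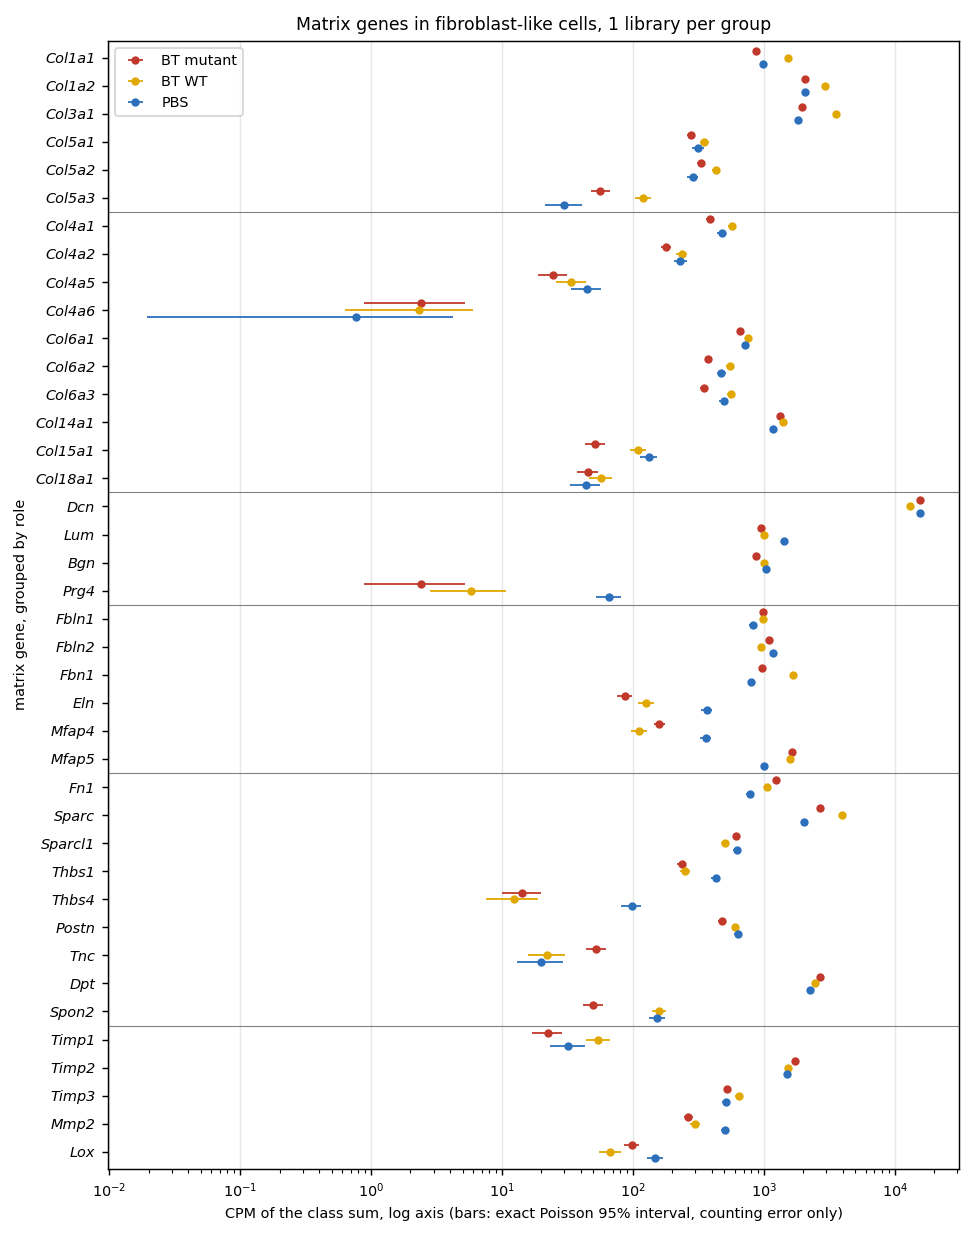
CPM of the fibroblast-like class sum (log axis) for each of the 40 matrix genes, with 1 point per library and bars for the exact Poisson 95% interval, which covers counting error only. The BT WT point lies to the right of both other points for all 6 fibrillar collagens, Fbn1 and Sparc, and the PBS point lies far to the right for Prg4, Eln, Mfap4 and Thbs4.

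The other collagens differed less between BT WT and PBS. None of the 9 counted network, beaded-filament and multiplexin collagens passed 1.5-fold there (backgrounds 13.1% higher and 10.6% lower). Their median log2 ratio was 0.18, against 0.61 for the fibrillar collagens. For BT mutant over BT WT, 0 of the 9 were higher and 2 lower (backgrounds 8.72% and 9.36%), with medians of -0.46 and -0.67. For BT mutant over PBS, 0 were higher and 2 lower (backgrounds 10.7% and 9.43%). There the median of the 9 was farther from 0, at -0.33 against 0.04. Col14a1, a fibril-associated collagen and the most abundant of the 9, had 1335, 1395 and 1167 CPM in the BT mutant, BT WT and PBS libraries. Col4a1 had 386, 568 and 479 CPM and its head-to-head partner Col4a2 had 180, 236 and 230 CPM, so that both were lowest in the BT mutant library, at 0.679 and 0.763 times the BT WT level. Of the second pair, Col4a5 had 24.7, 33.8 and 44.2 CPM, and Col4a6 was barely detected with 6, 4 and 1 UMIs. The type VI chains Col6a1, Col6a2 and Col6a3 ranged from 351 to 758 CPM over the 3 libraries, and each had its lowest level in the BT mutant library. Col6a3 was the member of that trio past 1.5-fold, at 0.625 times the BT WT level in BT mutant cells (0.570 to 0.685). Col15a1, a multiplexin near basement membranes, had 51.7, 110 and 133 CPM in the BT mutant, BT WT and PBS libraries. The BT mutant level was 0.471 times that of BT WT (0.374 to 0.593) and 0.390 times that of PBS (0.308 to 0.492). Col18a1, the parent chain of endostatin, had 45.3, 56.6 and 43.5 CPM, with intervals of all 3 ratios that include 1.

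Among the proteoglycans, Dcn (decorin, which coats collagen fibrils) was the most abundant of all 40 members, at 15633 CPM in BT mutant, 13090.5 CPM in BT WT and 15497 CPM in PBS cells. It was lowest in the library in which the fibrillar collagens were highest, with a BT WT over PBS ratio of 0.845 (0.829 to 0.861). Lum (lumican) had 951, 995 and 1414 CPM and Bgn (biglycan) had 873, 1006 and 1045 CPM in the BT mutant, BT WT and PBS libraries, and neither passed 1.5-fold. Prg4, the lubricating proteoglycan of joints and serous surfaces, behaved differently. It had 2.39, 5.83 and 65.6 CPM in the BT mutant, BT WT and PBS libraries, from 6, 10 and 86 UMIs. The BT WT over PBS ratio was 0.0890 (0.0412 to 0.172) and the BT mutant over PBS ratio 0.0364 (0.0130 to 0.0825). The 86 PBS UMIs came from 17 of 124 cells, 21 of them from 1 cell, and without the 3 richest cells of each library Prg4 still had 1.2, 2.97 and 31.5 CPM in the BT mutant, BT WT and PBS libraries.

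The elastic fibre genes split. Fbn1 (fibrillin-1, the core of microfibrils) had 977, 1657 and 805 CPM in the BT mutant, BT WT and PBS libraries, a ratio of 2.06 for BT WT over PBS (1.92 to 2.21) and of 0.590 for BT mutant over BT WT (0.558 to 0.623). Mfap5, a microfibril-associated protein, was high in both colonized libraries, with 1641 CPM in BT mutant, 1598 CPM in BT WT and 999 CPM in PBS cells. Its ratios to PBS were 1.64 in BT mutant (1.54 to 1.75) and 1.60 in BT WT (1.498 to 1.71). Fbln1 and Fbln2, fibulins of elastic fibres and basement membranes, lay between 826 and 1176 CPM in every library, with no ratio past 1.5-fold. Eln (elastin) and Mfap4 were highest in the PBS library. Mfap4 had 159, 112 and 359 CPM in the BT mutant, BT WT and PBS libraries and kept that order without the 3 richest cells of each library (140, 85.6 and 246 CPM). Eln had 86.7, 127 and 365 CPM, but 247 of the 479 PBS UMIs came from 1 cell of sub-cluster S6 and 117 from 1 cell of sub-cluster S4. Without the 3 richest cells of each library Eln had 74.2, 108 and 73.4 CPM in the BT mutant, BT WT and PBS libraries, so the PBS excess rests on those cells.

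Sparc, a collagen-binding glycoprotein, was the most abundant of the adhesive and matricellular group, with 2689.8 CPM in BT mutant, 3922 CPM in BT WT and 2020.5 CPM in PBS cells. Its ratios were 1.94 for BT WT over PBS (1.86 to 2.03), 0.686 for BT mutant over BT WT and 1.33 for BT mutant over PBS. Fn1 (fibronectin) was highest in the BT mutant library, with 1249, 1059 and 782 CPM in the BT mutant, BT WT and PBS libraries and a BT mutant over PBS ratio of 1.60 (1.49 to 1.71). With the Col1a1 and Dcn gate, BT mutant was 0.969 times BT WT for Fn1. Spon2, a secreted protein also known in innate recognition, was low in the BT mutant library alone, with 49.7, 157 and 152 CPM in the BT mutant, BT WT and PBS libraries. The BT mutant level was 0.316 times that of BT WT (0.253 to 0.392) and 0.326 times that of PBS (0.259 to 0.410), and it was lower than BT WT in all 5 sub-clusters. Against PBS it was lower in 3 of 4 sub-clusters and higher in 1, with ratios from 0.198 to 1.26. Thbs1 had 237, 250 and 428 CPM, and the PBS level was the highest. That excess lay in S7 (320, 420 and 984.5 CPM), and without S7 Thbs1 had 199, 212 and 192 CPM in the BT mutant, BT WT and PBS libraries. Tnc (tenascin-C) had 52.1, 22.2 and 19.8 CPM in the BT mutant, BT WT and PBS libraries, ratios of 2.35 for BT mutant over BT WT (1.63 to 3.47) and 2.63 for BT mutant over PBS (1.72 to 4.17). 12 of the 26 PBS UMIs of Tnc were in 1 cell. The BT mutant excess over PBS rested on sub-cluster S12: without it the log2 ratio was -0.29, against 1.39 with all cells. Thbs4 had 14.3, 12.2 and 97.6 CPM, but 58, 27 and 15 of its 128 PBS UMIs came from 3 cells. Without the 3 richest cells of each library it had 8.87, 5.98 and 22.6 CPM in the BT mutant, BT WT and PBS libraries. Postn (periostin) had 475, 605 and 634 CPM, with 253 of 831 PBS UMIs in 1 cell, and 438, 553 and 371 CPM without the 3 richest cells. That 1 PBS cell, of 25537 UMIs and in sub-cluster S4, was also the richest PBS cell for Thbs4, Prg4 and Mfap4. Sparcl1 (609, 502 and 623 CPM) and Dpt (2670.0, 2459 and 2234 CPM), which binds decorin, stayed within 1.5-fold.

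Of the enzymes and inhibitors, Timp2, an inhibitor of matrix metalloproteinases, was the most abundant, with 1745, 1542 and 1500.5 CPM in the BT mutant, BT WT and PBS libraries. Timp3 had 525, 642 and 515 CPM. Mmp2 (gelatinase A) was lower in both colonized libraries, with 266 CPM in BT mutant and 298 CPM in BT WT against 505 CPM in PBS cells. The ratios to PBS were 0.525 in BT mutant (0.471 to 0.586) and 0.590 in BT WT (0.524 to 0.663). Lox, which crosslinks collagen and elastin, had 97.8, 67.1 and 149 CPM in the BT mutant, BT WT and PBS libraries, a BT WT over PBS ratio of 0.451 (0.355 to 0.571). Timp1 had 22.3, 54.2 and 32.0 CPM, with 29 of 93 BT WT UMIs in 1 cell. Without the richest cell of each library Timp1 had 20.8, 37.7 and 28.7 CPM, and the BT WT over PBS ratio was 1.31 instead of 1.69; with a gate on Col1a1 and Dcn in place of clusters it was 0.984.

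**Figure D3:**
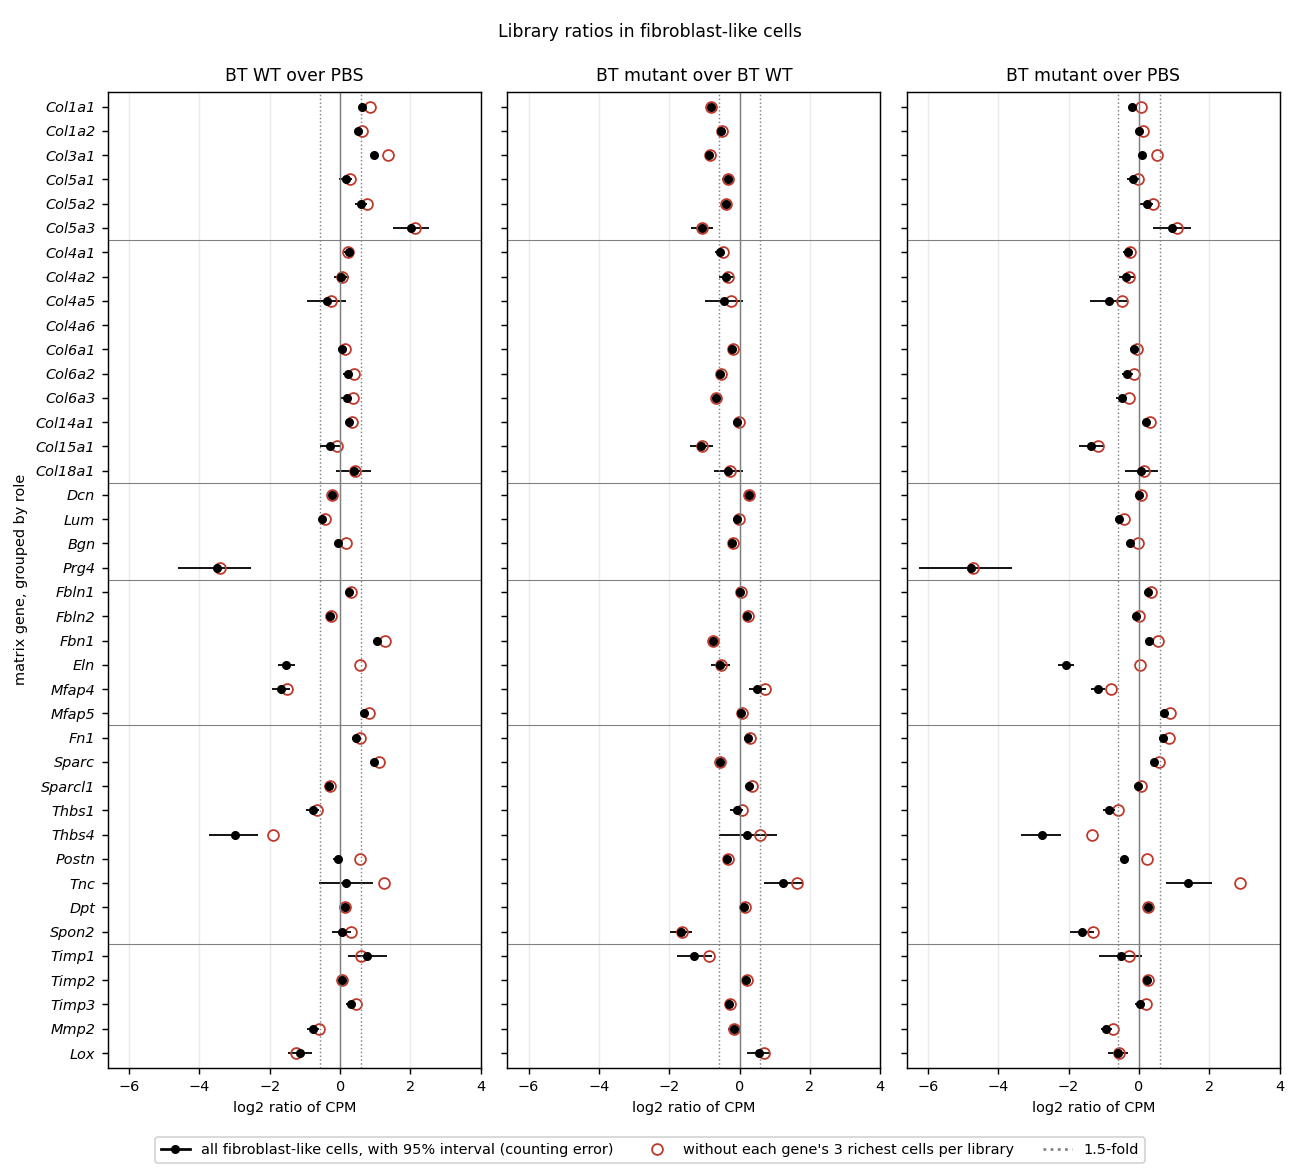
Log2 ratio of CPM in fibroblast-like cells for each matrix gene with at least 20 UMIs over both libraries, with 1 panel per pair of libraries; filled points carry exact 95% intervals (counting error only), open circles leave out the 3 richest cells of each gene in each library, and dotted lines mark 1.5-fold. The open circles lie near the filled points for most genes and far from them for Eln (BT WT over PBS -1.53 with all cells and 0.55 without the 3 richest), Thbs4, Postn and Tnc.

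The fibroblast-like cells fell into 5 sub-clusters, made without the matrix genes, which also differed from each other in matrix level. S6 (128, 71 and 36 cells in the BT mutant, BT WT and PBS libraries, led by Dcn, Dpt, Col3a1, Sparc and Mfap5) had the highest pooled level of 16 members, among them the type I, III and V chains, Fbn1 (2236 CPM), Mfap5 (2510.3 CPM), Sparc (4531 CPM) and Col3a1 (3685 CPM). S12 (31, 39 and 18 cells, led by Adamdec1, Igfbp3 and Rarres2) was highest for 13, among them Postn (2089 CPM), Fbln1 (2294 CPM), Bgn (1832 CPM), Col15a1 (416 CPM), Tnc (329.7 CPM) and the pair Col4a1 (794 CPM) and Col4a2 (478 CPM). S4 (72, 30 and 26 cells, led by Dcn, Dpt, Igfbp6, C3 and Mfap5) was highest for 7, but for 0 of these in all 3 libraries taken singly. Timp2 in S4 had 2436, 2525 and 1551 CPM in the BT mutant, BT WT and PBS libraries, and in the PBS library S6 was higher (1812 CPM). S7 (100, 36 and 37 cells, led by Dcn, Inmt and C3) was highest for Dcn (21715 CPM), Sparcl1, Thbs1 and Col4a5. S10 (36, 31 and 7 cells) was highest for none in the pooled levels and carried epithelial markers at 5876, 5188 and 4497 CPM in the BT mutant, BT WT and PBS libraries, against 225 to 713 CPM in the other sub-clusters. Pooled levels weigh the libraries by their cells: the same sub-cluster was highest in all 3 libraries for 9 of the 16 members of S6, 9 of the 13 of S12 and 3 of the 4 of S7.

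The library order of the fibrillar collagens was not the same in every sub-cluster. In S6, Col3a1 had 3584, 4711 and 2247 CPM in the BT mutant, BT WT and PBS libraries, and in S7 it had 852, 3581 and 811 CPM, the BT WT level being the highest in both. In S4 the order differed, with 1409, 2860 and 3193 CPM, and Col1a1 in S4 likewise was highest in the PBS library (570.5, 965 and 1305 CPM). Fbn1 was higher in BT WT than in PBS in all 4 sub-clusters with at least 10 cells in each, by 1.11 to 3.42 times, and in S4 it had 925, 2051 and 599 CPM. Between BT mutant and BT WT, Col1a1, Col1a2, Col3a1, Col4a1, Col6a2, Col6a3, Col15a1, Eln, Sparc, Spon2 and Timp1 were lower in BT mutant in all 5 sub-clusters, and Fn1 and Lox were higher in all 5. The share of all genes with the same direction in all 5 is not given here, so these members are not set against a background. The sub-clusters come from the same libraries and are not replicates. The ratio for Col3a1 ranged from 0.238 to 0.761 over the 5, and that for Col1a1 from 0.321 to 0.739. Tnc was highest in S12 in each library, with 758, 194 and 59.1 CPM in the BT mutant, BT WT and PBS libraries, and outside S12 its highest level was 36.5 CPM, in S6 of the PBS library. S12 made up 8.45%, 18.8% and 14.5% of fibroblast-like cells in the BT mutant, BT WT and PBS libraries, so that the library with the highest Tnc level had the lowest S12 share. Mfap4 was high in S4 of the PBS library (134, 14.6 and 1009 CPM) and in S12 of both colonized libraries (523, 549 and 219 CPM).

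**Figure D4:**
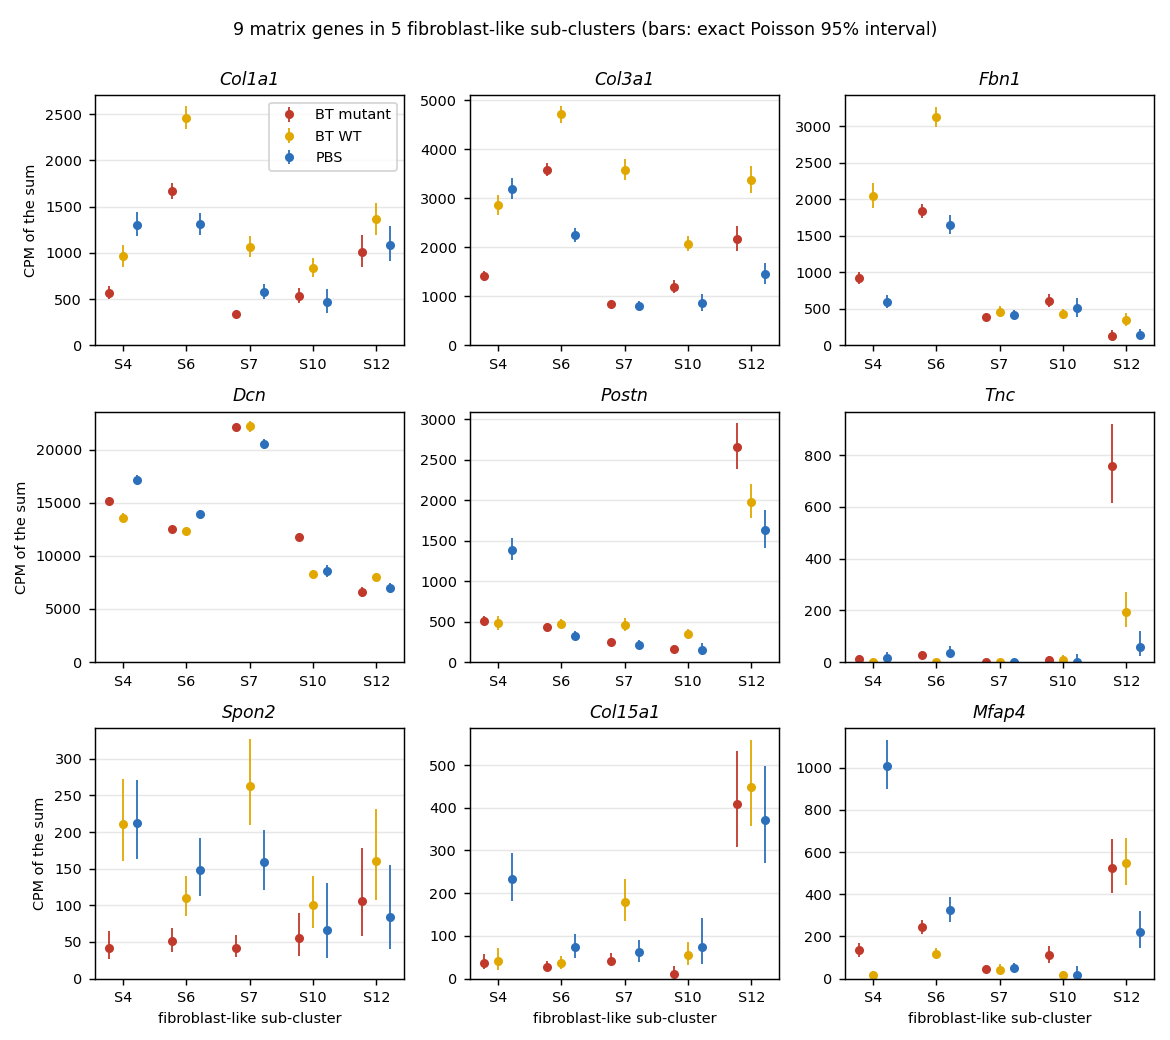
CPM of 9 matrix genes in the 5 fibroblast-like sub-clusters (across), with 1 point per library and exact Poisson 95% intervals (counting error only). Col3a1 is highest in the BT WT library in S6, S7, S10 and S12 but not in S4, Tnc is high in S12 of the BT mutant library (758 CPM), and Dcn is highest in S7 in all 3 libraries.

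Endothelial-like cells carried a matrix profile of their own, led by Timp3, Sparc, Col4a1 and Sparcl1. Of 20 members counted between BT WT and PBS, 4 were at least 1.5-fold higher (background 14.2%) and 5 lower (background 15.8%). Between BT mutant and BT WT, 6 of 19 were higher (background 15.7%) and 7 lower (background 11.7%), and between BT mutant and PBS, 3 of 20 were higher (background 17.4%) and 8 lower (background 15.4%). The median log2 ratios of the members were -0.15, 0.05 and -0.30 in these comparisons, against -0.01, 0.04 and 0.04 over all genes counted. Without the 3 richest cells of each member, 5 of the 10 members still counted were past 1.5-fold between BT WT and PBS (3 higher and 2 lower). Between BT mutant and PBS they were 6 of 13, with 4 higher and 2 lower. The split there was thus turned from the 3 higher and 8 lower of all cells.

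The type IV pair was highest in BT WT endothelial-like cells. Col4a1 had 461, 1156 and 737 CPM in the BT mutant, BT WT and PBS libraries, ratios of 1.57 for BT WT over PBS (1.33 to 1.86) and 0.398 for BT mutant over BT WT (0.336 to 0.471). Col4a2 had 233, 591 and 493 CPM, with ratios of 1.2 (0.967 to 1.49) and 0.395 (0.310 to 0.501), so both genes of the shared start region were lowest in the BT mutant library. Sparc had 577, 1748 and 881 CPM, with a BT WT over PBS ratio of 1.98 (1.72 to 2.30) and a BT mutant over BT WT ratio of 0.330 (0.285 to 0.382). Timp3, an inhibitor that binds to the matrix, ran the other way with 3748, 2295 and 3248 CPM and a BT mutant over BT WT ratio of 1.63 (1.5 to 1.78). The endothelial-like class sums held 471147, 338170 and 312173 UMIs in the BT mutant, BT WT and PBS libraries. The low levels that follow therefore rest on few UMIs. Col15a1 had 67.9, 133 and 57.7 CPM, Col18a1 170, 97.6 and 60.9 CPM, and Eln 129, 56.2 and 112 CPM in the BT mutant, BT WT and PBS libraries. Bgn had 149, 68.0 and 89.7 CPM, Fn1 127, 59.1 and 64.1 CPM and Timp2 531, 263 and 455 CPM. For these 3 genes the BT mutant level was 2.18, 2.15 and 2.02 times the BT WT level, given here without intervals. Against PBS the direction was not stable: with cells thinned to 1000 UMIs the log2 ratio was -1.08 for Bgn and -0.076 for Fn1, and in blood cells alone it was -0.028 for Fn1. Dcn had 31.8, 26.6 and 215 CPM and Postn 34.0, 68.0 and 186 CPM, and neither held at that size without the richest cell of each library (Dcn 23.0, 6.12 and 113 CPM, Postn 27.4, 47.8 and 42.2 CPM). Smooth muscle and pericyte markers, 14 in all, summed to 881, 1038 and 2803 CPM in the BT mutant, BT WT and PBS endothelial-like cells, with 2, 3 and 0 of them at 0, and their part in these PBS levels was not tested.

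Blood and lymphatic endothelial-like cells differed in these genes, and their mix differed between libraries. Lymphatic endothelial-like cells were 28 of 85, 11 of 72 and 12 of 40 cells in the BT mutant, BT WT and PBS libraries. In the blood part alone, Col4a1 had 636, 1487 and 917 CPM, Col4a2 366, 795 and 632 CPM and Sparc 1006, 2384 and 1185 CPM in the BT mutant, BT WT and PBS libraries, the order seen in the whole class. In the lymphatic part Col4a1 had 259, 280.2 and 222 CPM and Sparc no more than 86.5 CPM. Timp3 had 2852, 1948 and 2578 CPM in the blood part and 4774, 3212 and 5160 CPM in the lymphatic part, the BT WT library being the lowest in each. Col18a1 was mainly lymphatic in both colonized libraries, with 319, 216 and 49.4 CPM in the lymphatic part against 39.8, 53.0 and 64.9 CPM in the blood part. Col15a1 had 0 UMIs in the lymphatic part of all 3 libraries. A count of 0 in the lymphatic part covers few cells and does not show absence.

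**Figure D5:**
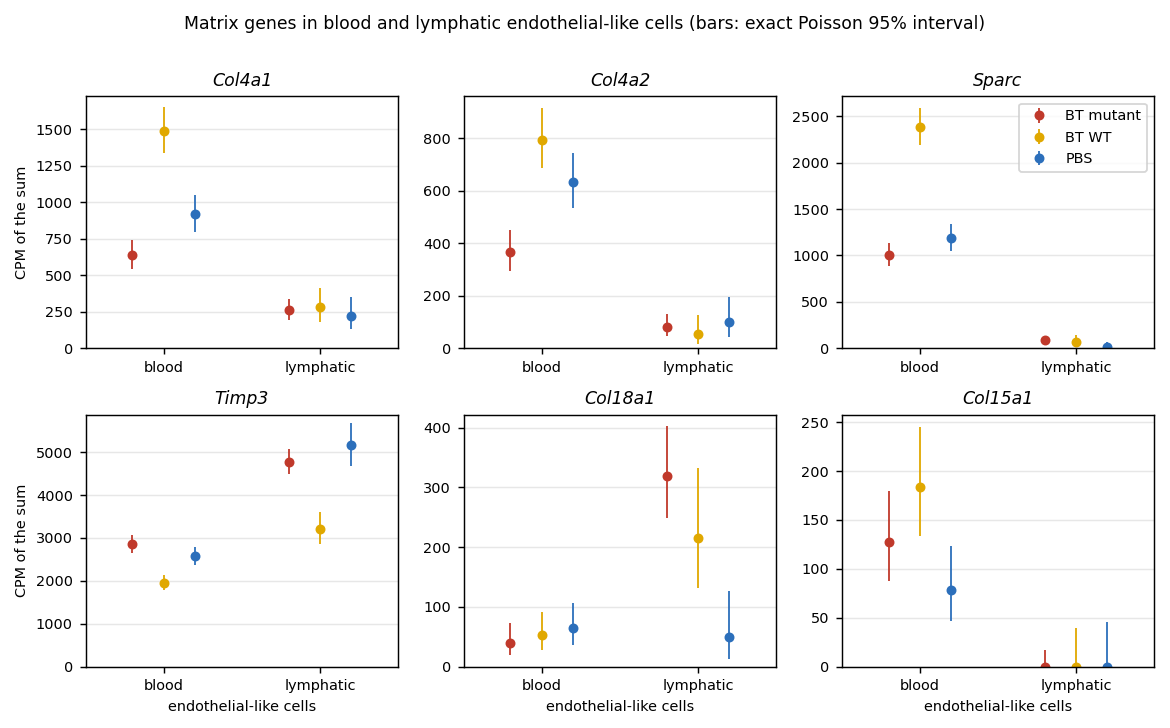
CPM of 6 matrix genes in blood and in lymphatic endothelial-like cells, with 1 point per library and exact Poisson 95% intervals (counting error only). In blood cells Col4a1, Col4a2 and Sparc are highest in the BT WT library (1487, 795 and 2384 CPM), and Timp3 is lowest in the BT WT library in both parts.

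In epithelial-like cells, Thbs4, Thbs1 and Timp3 had the highest levels of the 40 members in the BT WT library and lay above the level in B-like cells in all 3 libraries, as did Col15a1 and Spon2 at far lower levels. Thbs4 had 121, 115 and 103 CPM in the BT mutant, BT WT and PBS libraries, against 5.36, 6.05 and 4.96 CPM in B-like cells, and its ratios between libraries lay within 1.05 and 1.18. Thbs1, a thrombospondin known for activating TGF-beta, had 43.3, 67.6 and 82.6 CPM, against 3.58, 3.78 and 8.10 CPM in B-like cells. Its ratios were 0.641 for BT mutant over BT WT (0.600 to 0.684) and 0.524 for BT mutant over PBS (0.489 to 0.562). With every cell thinned to 1000 UMIs, the log2 ratio of Thbs1 for BT mutant over BT WT turned to 0.18, so the direction was not stable to depth. Timp3 had 21.3, 48.4 and 15.8 CPM, against 4.47, 3.53 and 3.13 CPM in B-like cells, with ratios of 3.07 for BT WT over PBS (2.72 to 3.47) and 0.439 for BT mutant over BT WT (0.402 to 0.479). The other 37 members had medians of 0.942, 0.646 and 0.693 CPM in the BT mutant, BT WT and PBS libraries. Dcn, for example, had 16.1, 6.40 and 23.7 CPM in epithelial-like cells and 25.9, 7.81 and 16.7 CPM in B-like cells. Col3a1 had 2.48, 2.03 and 1.04 CPM against 4.47, 3.02 and 1.57 CPM in B-like cells, Bgn 1.43, 1.23 and 0.643 CPM against 3.58, 0.756 and 2.35 CPM, and Sparc 3.88, 2.14 and 1.63 CPM against 5.36, 1.26 and 2.35 CPM. Fbln2 had 1.57, 0.529 and 2.13 CPM against 2.38, 0.504 and 1.04 CPM in B-like cells, and Sparcl1 1.34, 0.764 and 2.18 CPM against 5.66, 0.504 and 1.57 CPM. Levels this close to those of B-like cells were read as background.

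Counts past 1.5-fold in epithelial-like cells therefore include many members near the B-like level. They were 4 higher and 11 lower of 29 for BT WT over PBS (backgrounds 19.0% and 15.1%), 15 higher and 3 lower of 31 for BT mutant over BT WT (9.99% and 15.4%), and 8 higher and 4 lower of 32 for BT mutant over PBS (10.5% and 13.7%). The 15 members higher in BT mutant than in BT WT are all among the 37. Among these 15, Col15a1 (2.68 CPM in BT mutant and 1.73 CPM in BT WT) lay above the B-like level in all 3 libraries. No epithelial expression is read from the others. Different clusters also made up the class in each library. Of the 740 PBS cells 327 were in cluster 4, which held 0 cells of the other libraries, whereas 1870 of the 4417 BT WT cells were in cluster 28 and 1595 of the 3510 BT mutant cells in cluster 19. Within cluster 5, which held 376, 228 and 119 cells (median depths 24310.5, 25168 and 34710 UMIs, deepest in the PBS library), Thbs4 had 135, 177 and 133 CPM and was detected in 78.5%, 80.7% and 75.6% of cells in the BT mutant, BT WT and PBS libraries. In the goblet-gene cluster 7 (87, 785 and 119 cells, led by Clca1, Tff3 and Zg16) Thbs4 had 27.6, 52.9 and 40.3 CPM, and in cluster 13 (113, 76 and 39 cells, led by Cdkn1c, Matk and Dclk1) 35.3, 19.8 and 9.41 CPM. Thbs4 was thus lower in clusters 7 and 13 than in cluster 5 in all 3 libraries. Thbs1 peaked in cluster 15 (led by Spink4, Mptx1 and Agr2), with 116, 348 and 330.0 CPM. Timp3 had 86.1 CPM in BT WT cells of cluster 28, but in cluster 5 it had 10.9, 15.4 and 21.3 CPM, where the BT WT level was below the PBS level. The BT WT level was also below PBS in clusters 13 (6.08, 15.8 and 21.97 CPM) and 15 (47.4, 50.4 and 55.5 CPM), and above it in cluster 7 (17.5, 29.3 and 6.71 CPM).

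In macrophage, monocyte and dendritic-like cells (194, 160 and 89 cells in the BT mutant, BT WT and PBS libraries), 3 members passed 100 CPM in at least 1 library, a level picked after the values were seen. Timp2 had 448, 388 and 511 CPM, against 7.15, 2.52 and 6.01 CPM in B-like cells. Fn1 had 445, 505 and 255 CPM from 35, 28 and 6 cells. Prg4 had 0, 124 and 299 CPM, from 0, 3 and 3 cells, and 216 of the 222 PBS UMIs were in 1 cell, which also held 76.2% of the PBS Fn1 UMIs. The Prg4 level of this class therefore describes single cells and not the class.

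Other genes of the matrix pathway were read from lists in fibroblast-like cells, with the same rule and background. Of all genes so counted, 13.1% were higher and 10.6% lower in BT WT than in PBS. The shares were 8.72% and 9.36% for BT mutant against BT WT, and 10.7% and 9.43% for BT mutant against PBS. The lists are short, and no list count was tested against these shares. Of the genes that make and crosslink collagen, 5 of 21 counted were at least 1.5-fold higher in BT WT than in PBS and 0 lower, with a median log2 ratio of 0.36. In BT mutant against BT WT 0 of 22 were higher and 4 lower (median -0.17), and in BT mutant against PBS 0 of 21 passed in either direction (median 0.06). Serpinh1, the collagen chaperone HSP47, had 473, 909 and 387 CPM in the BT mutant, BT WT and PBS libraries, a ratio of 2.35 for BT WT over PBS (2.13 to 2.60) and of 0.521 for BT mutant over BT WT (0.482 to 0.562). It was highest in the BT WT library, as were Col3a1 and Col1a1. Of the matrix receptors, 8 of 22 were higher and 0 lower in BT WT than in PBS, 1 of 24 higher and 4 lower in BT mutant than in BT WT, and 5 of 23 higher and 1 lower in BT mutant than in PBS. Of laminins, nidogens and other basement membrane genes, 3 of 12 were higher and 2 lower, 0 of 13 higher and 2 lower, and 2 of 12 higher and 0 lower in the same comparisons. Of other proteoglycans and matrix glycoproteins, 10 of 41 were higher and 4 lower, 1 of 40 higher and 4 lower, and 7 of 39 higher and 2 lower. Aspn (asporin, a relative of decorin) had 711 CPM in BT mutant cells against 256 CPM in PBS cells, a ratio of 2.78 (2.47 to 3.13).

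Of matrix proteases and their inhibitors, 4 of 22 were higher and 5 lower in BT WT than in PBS, 1 of 21 higher and 6 lower in BT mutant than in BT WT, and 1 of 21 higher and 8 lower in BT mutant than in PBS. Of the collagens outside the 40 members, 6 were counted in each comparison, with 1 higher and 2 lower in BT WT than in PBS, 1 and 1 in BT mutant than in BT WT, and 2 and 1 in BT mutant than in PBS. Col8a1, a short-chain collagen, had 237, 257 and 441 CPM in the BT mutant, BT WT and PBS libraries. Of TGF-beta ligands, receptors and response genes, 3 of 20 were higher and 2 lower, 1 of 20 higher and 6 lower, and 1 of 19 higher and 5 lower in the same comparisons. The 19 dissociation stress genes summed to 28006, 30066 and 34257 CPM in the BT mutant, BT WT and PBS libraries, and their part in the ratios was not tested.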

How the data were processed

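Libraries were made from mouse colon cells with a 3′ droplet kit, per the labels' protocols. The deposited files hold raw UMI counts per gene and barcode; their headers name Cell Ranger 5.0.0, and Cell Ranger, STAR and mm10 stand in the submitters' processing notes. How the authors called cells or treated doublets is not given. The counts were analysed with Python 3.11.15 and scanpy 1.11.5: cells were scaled to 10000 UMIs, log-transformed, reduced to 2000 variable genes and 30 principal components, and clustered (Leiden, 15 neighbours, resolution 1.0), and stromal clusters were clustered again. A cluster took the name of its best marker set at a score of at least 1.5 with at least 3 markers, a rule set after clusters were seen, in 2 versions; names may therefore differ from the study's. 530, 327 and 848 cells of the BT mutant, BT WT and PBS libraries stayed unnamed. No doublet caller was run. Cells with at least 2 UMIs of another compartment's defining markers were left out as an alternative. Fibroblast-like cells then numbered 241, 140 and 69 in the BT mutant, BT WT and PBS libraries, against 367, 207 and 124 with all cells. Ratios needed at least 30 cells per library and 20 UMIs over both libraries. The interval code was tested on simulated data. Members given in full are the most abundant of each role, the head-to-head pairs and, per comparison, the 3 widest ratios in each direction with at least 50 UMIs and an interval that excludes 1; others were added after their values were seen. The members and gene lists were chosen with earlier results of these data known.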

Additional observations from a re-analysis of the deposited data

How the results depend on the processing

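Each library is 1 sample, so depth and the number of cells limit the precision, and no setting replaces a replicate. No paired analysis was possible because each group has 1 library. Over all settings, 146 counts stayed within 1.5 times of the reported one, 25 moved and 5 had the split of higher against lower members turned; of single-gene ratios 618 stayed, 176 moved and 28 changed sign. Leaving out sub-clusters or the richest cells, taking single epithelial clusters or blood endothelial-like cells alone, and adding cluster 0 were chosen after seeing the data. Counts are given of the members that could be counted under each setting, since thinning, single clusters and leaving out cells leave fewer. Any other cause of the changes below was not tested. In fibroblast-like cells, members past 1.5-fold between BT WT and PBS numbered 15 of 39, and 8 of 33 with cells thinned to 1000 UMIs. Between BT mutant and BT WT they numbered 9 of 38, but 16 without doublet-like cells, 15 with a gate on Col1a1 and Dcn, 14 without S10 and 15 without S6, each of 38; thinned log2 ratios were -0.20 for Lox and -0.16 for Mfap4. Between BT mutant and PBS, the log2 ratio of Eln was 0.31 without doublet-like cells and 0.015 without the 3 richest cells, and that of Tnc -0.49 with a mitochondrial limit of 10%, -0.49 with the gate and -0.29 without S12. In endothelial-like cells the count between BT WT and PBS was 9 of 20, but 15 of 20 with each cell weighing the same, 5 of 6 thinned, 5 of 10 without the 3 richest cells and 16 of 33 with no minimum of UMIs, and the log2 ratio of Postn was 0.18 without the richest cell and 0.75 without the 3 richest. For BT mutant and BT WT it was 13 of 19, but 5 of 6 thinned and 22 of 31 with no minimum. For BT mutant and PBS it was 11 of 20, but 0 of 6 thinned, 6 of 13 without the 3 richest cells (split turned) and 24 of 36 with no minimum; thinned log2 ratios were -1.08 for Bgn and -0.076 for Fn1, and in blood cells alone -0.71 for Col18a1 and -0.028 for Fn1. In epithelial-like cells the count between BT WT and PBS was 15 of 29, but 3 of 5 thinned, 12 of 28 without doublet-like cells, 11 of 28 without the 3 richest cells (split turned in both), 9 of 18 at 50 UMIs, 2 of 5 in cluster 5 and 2 of 5 in cluster 7. There the log2 ratio of Bgn was -0.61 with no mitochondrial limit, -0.77 at 1000 genes, -0.58 thinned, -0.0090 with unnamed cluster 0 and -1.58 in cluster 7; that of Col3a1 was -0.81 at 1000 genes, -0.079 thinned, -0.30 in cluster 5 and -0.84 in cluster 7; that of Dcn was 0.018 without doublet-like cells and 0.10 in cluster 7; and that of Timp3 was -0.46 in cluster 5. For BT mutant and BT WT the count was 18 of 31, but 30 of 34 with no mitochondrial limit, 28 of 32 at 1000 genes, 6 of 10 thinned, 9 of 12 in cluster 5 and 5 of 5 in cluster 7 (split turned), and the thinned log2 ratio of Thbs1 was 0.18. For BT mutant and PBS it was 12 of 32, but 23 of 35 with no mitochondrial limit, 21 of 32 with each cell weighing the same, 4 of 7 thinned, 15 of 34 with cluster 0 (split turned) and 3 of 4 in cluster 7, and the log2 ratio of Sparcl1 was 0.064 without doublet-like cells and 0.31 in cluster 5. Removing doublet-like cells and gating on endothelial markers were not run for endothelial-like cells against PBS, which had under 30 cells left.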

Other observations

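Over 19 alternatives, the log2 ratio of Col3a1 in fibroblast-like cells for BT WT over PBS lay between 0.65 and 1.38 (0.96 as reported), that of Fbn1 between 0.87 and 1.75 (1.04) and that of Col5a3 between 1.69 and 2.21 (2.0). For BT mutant over BT WT, Spon2 lay between -1.90 and -1.34 (-1.66). Other members were less stable: Col1a1 for BT mutant over PBS lay between -0.81 and 0.22, and Thbs1 for BT WT over PBS between -0.93 and 0.14. These ranges describe the same 3 libraries and give no replicate.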
